A study of Homo sapiens with 8 samples.

Results

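The let-7 family and its close relative miR-98 are human miRNAs that carry one seed, the stretch of bases 2 to 8 through which a miRNA pairs with its target transcripts. Here the family was taken by name as 10 mature miRNAs of the array, out of 2549 human miRNAs with probes: hsa-let-7a-5p, hsa-let-7b-5p, hsa-let-7c-5p, hsa-let-7d-5p, hsa-let-7e-5p, hsa-let-7f-5p, hsa-let-7g-5p, hsa-let-7i-5p, hsa-miR-98-5p, and hsa-let-7f-1-3p from the opposite arm of a let-7f hairpin. Mature miRNAs of INA-6, an established multiple myeloma (MM) cell line grown with interleukin-6, were measured on 8 single-colour arrays of 1 slide. The 4 control arrays held RNA of cells given DMSO, the solvent of the drug, and the other 4 held RNA of cells given 1 µM of UNC1999, a compound that blocks the enzymatic activity of EZH2. Treatment lasted 120 hours, with medium and reagents refreshed at 72 hours. The sample titles name DMSO as the control, whereas the treatment protocol of the labels names the inactive compound UNC2400, and the arrays were taken as DMSO controls here.

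let-7 miRNAs are cut from hairpin precursors by Drosha and Dicer, and in most family members the 5p arm is the strand loaded into Argonaute. LIN28 proteins bind many let-7 precursors and block their maturation, so that mature let-7 is scarce in early embryonic cells and accumulates as cells differentiate. Transcripts of RAS, HMGA2 and MYC genes are among the best known let-7 targets.

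Mature sequences were found for 10 of 10 members in the RefSeq miRNA table of build GRCh38.p14. The sequences of the 8 members detected on these arrays are shown to make plain how little separates the 5p members among them, 5′ to 3′, with the seed in capitals.
hsa-let-7a-5p: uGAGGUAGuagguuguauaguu
hsa-let-7b-5p: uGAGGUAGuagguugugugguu
hsa-let-7c-5p: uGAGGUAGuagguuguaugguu
hsa-let-7d-5p: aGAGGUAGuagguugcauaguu
hsa-let-7f-5p: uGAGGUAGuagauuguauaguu
hsa-let-7g-5p: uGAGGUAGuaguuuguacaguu
hsa-let-7i-5p: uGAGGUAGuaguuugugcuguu
hsa-let-7f-1-3p: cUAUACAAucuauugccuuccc
The seed was shared by 9 of the 10 members, and let-7f-1-3p had another one. With positions counted from 1 at the 5′ end and the base of let-7a-5p given first, let-7c-5p differed from let-7a-5p by A19G alone and let-7f-5p by G12A alone. let-7b-5p differed by A17G and A19G, let-7d-5p by U1A and U16C, and let-7g-5p by G12U and U18C. let-7i-5p differed by G12U, A17G, U18C and A19U. let-7e-5p, which differs by U9G, and miR-98-5p, which differs by G11A and A19U, were not detected.

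The members come from several loci. let-7a-5p can be made from 3 hairpins, at chr9:94175962-94175983 on the plus strand within MIRLET7A1HG, at chr11:122146568-122146589 on the minus strand, and at chr22:46112752-46112773 on the plus strand within LOC124905135. let-7f-5p can be made from 2 hairpins, at chr9:94176353-94176374 on the plus strand within MIRLET7A1HG and at chrX:53557246-53557267 on the minus strand within HUWE1. let-7f-1-3p lies at chr9:94176409-94176430 and let-7d-5p at chr9:94178841-94178862, both on the plus strand within MIRLET7A1HG, so that hairpins of let-7a, let-7f and let-7d form 1 cluster. let-7b-5p lies at chr22:46113691-46113712 on the plus strand within LOC124905135, as does the let-7a hairpin of chromosome 22. let-7c-5p lies at chr21:16539838-16539859 on the plus strand. let-7g-5p lies at chr3:52268336-52268357 on the minus strand within WDR82, and let-7i-5p at chr12:62603691-62603712 on the plus strand. An array signal for let-7a-5p or let-7f-5p does not tell these hairpins apart.

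Each array held 53144 spots. The scanner software marked 482, 369, 370 and 484 human miRNAs as detected on DMSO arrays 1 to 4, and 500, 498, 491 and 474 on UNC1999 arrays 1 to 4. The 75th percentile of the unscaled signal over the 346 miRNAs detected on all 8 arrays was 474, 349, 296 and 559 on the DMSO arrays, and 686, 708, 729 and 534 on the UNC1999 arrays. DMSO arrays 2 and 3 were thus the dimmest, and they had the fewest miRNAs detected. Each array was scaled to bring this percentile to 518, the geometric mean of the 8 percentiles, scaled values below a floor of 8.98 were set to it, and log2 was taken, so that changes are described against the rest of the array. limma compared the groups for 456 miRNAs, those with detection throughout 1 group or both. Calls needed a fold change of 1.2 or more and a p of 0.05 or less after Benjamini-Hochberg adjustment over the 456. RNA came from whole cultures, in which fewer cells of a kind and less RNA per cell cannot be told apart.

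The labels call the 4 arrays of each group biological replicates. The arrays were nonetheless alike in pairs, as seen from the root mean square of the log2 difference over the tested miRNAs. It was 0.166 between DMSO 1 and DMSO 4, 0.253 between DMSO 2 and DMSO 3, 0.169 between UNC1999 1 and UNC1999 3 and 0.179 between UNC1999 2 and UNC1999 4. The remaining pairs within a group lay between 0.300 and 0.452. Whether alike arrays came from separate cultures was not settled by their values, so results are given below also with alike arrays averaged and without the 2 dimmer DMSO arrays, both chosen after seeing the data. With 4 arrays in a group, a two-sided exact permutation test cannot give a p under 0.029.

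Most of the listed miRNAs of B, plasma or other blood cells were detected. The listed markers of other cells, red blood cells among them, were not. Of 5 miRNAs of B, plasma or other blood cells, 4 were detected on all 8 arrays, namely miR-142-3p, miR-142-5p, miR-150-5p and miR-21-5p. miR-155-5p, the remaining one, was detected on 0 DMSO arrays and 2 UNC1999 arrays and was not tested. Their summed scaled signal was 10167, 8233, 7729 and 9944 on DMSO arrays 1 to 4, and 8252, 6483, 7376 and 7167 on UNC1999 arrays 1 to 4. miR-21-5p was the most abundant of them on average over the arrays, miR-142-3p being above it on DMSO arrays 2 and 3. miR-21-5p had a log2 fold change of -0.01 (limma adjusted p = 0.94), while miR-142-3p, miR-142-5p and miR-150-5p were called lower at -0.52, -0.36 and -0.56, in a fit that called 34.6% of all tested miRNAs lower. Without scaling between arrays these 3 turned to 0.18, 0.33 and 0.13, and miR-21-5p was at 0.69. Of 13 markers of liver, nerve, muscle, epithelium, red cells, endothelium and pluripotent cells, 0 were detected on any of the 8 arrays. Their summed signal lay between -31.4 and 7.08 per array, with miR-133a-3p the most abundant on average, at 6.36 to 15.3, though not on UNC1999 arrays 2 and 4. The part of these markers in the let-7 results was not tested.

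Detection split the family. All 7 detected 5p members, let-7a, let-7b, let-7c, let-7d, let-7f, let-7g and let-7i, were detected on 8 of 8 arrays. hsa-let-7e-5p and hsa-miR-98-5p were detected on 0 of 8 arrays. Their unscaled signal ranged from -4.35 to -0.99 and from -2.78 to 2.27, and in the setting reported both stood at the floor on all 8 arrays. The passenger arm hsa-let-7f-1-3p was marked as detected on 8 of 8 arrays but with few spots above background, and is described separately.

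Relative to the other miRNAs of an array, 6 of the 7 detected 5p members were lower after UNC1999 treatment, but all of these calls were lost without scaling between arrays and with scaling to the labelling spike-ins, where the direction also turned for let-7i-5p, let-7f-5p and let-7a-5p in both and for let-7g-5p with the spike-ins. Of all 456 tested miRNAs, 34.6% were called lower and 36% were called higher. The median log2 fold change was -0.67 over the 7 members and 0.01 over all tested miRNAs. Every UNC1999 value lay below every DMSO value for 5 of the 7 members, against 32.7% of all tested miRNAs. With alike arrays averaged to 1 sample each, 5 of 7 members were called lower, against 18.9% of all tested miRNAs, let-7a-5p being lost (adjusted p = 0.098, range over the alternatives 9.1e-04 to 0.57), and without the 2 dimmer DMSO arrays 6 of 7 were, against 39.0% of all tested miRNAs.

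With the probes of each miRNA summed, let-7d-5p had the largest change of the family. One of its 2 probes was dim, and in the separate fit per probe it stood at the floor on all UNC1999 arrays. Its log2 signal was 6.55, 6.34, 6.33 and 6.66 on DMSO arrays 1 to 4, and 5.87, 5.31, 5.53 and 5.14 on UNC1999 arrays 1 to 4. The groups did not overlap, with UNC1999 array 1 the nearest to the controls. The mean fell from 6.47 ± 0.16 to 5.46 ± 0.31 (SD, n = 4), a 2.01-fold lower signal (log2 fold change -1.01, SE 0.16, limma adjusted p = 5.3e-04).

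let-7c-5p and let-7g-5p followed. On DMSO arrays 1 to 4 the log2 signal of let-7c-5p was 7.84, 7.47, 7.28 and 7.92, and on UNC1999 arrays 1 to 4 it was 7.07, 6.79, 6.78 and 6.56. The 2 dimmer DMSO arrays had the lowest control values, but these stayed above the highest UNC1999 value. The log2 fold change was -0.83 (SE 0.16, limma adjusted p = 0.00166). For let-7g-5p the log2 signal was 8.12, 7.76, 7.74 and 8.22 on the DMSO arrays and 7.46, 6.94, 7.17 and 7.07 on the UNC1999 arrays. Here too the groups did not overlap, and the log2 fold change was -0.80 (SE 0.15, limma adjusted p = 0.00136).

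let-7i-5p and let-7f-5p changed by close amounts. The log2 signal of let-7i-5p was 6.34, 6.12, 6.15 and 6.52 on the DMSO arrays, and 5.97, 5.46, 5.52 and 5.52 on the UNC1999 arrays. UNC1999 array 1 stood well above the other 3 of its group and just below the lowest control. The log2 fold change was -0.67 (SE 0.14, limma adjusted p = 0.00248). let-7f-5p was measured at 9.45, 9.10, 9.09 and 9.53 on the DMSO arrays and at 8.94, 8.54, 8.64 and 8.50 on the UNC1999 arrays. Its groups did not overlap either, and its log2 fold change was -0.64 (SE 0.14, adjusted p = 0.00308).

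let-7a-5p changed less, and its groups met. Its log2 signal was 10.69, 10.37, 10.29 and 10.75 on the DMSO arrays, and 10.29, 10.01, 10.04 and 9.85 on the UNC1999 arrays. UNC1999 array 1 reached the level of DMSO array 3, so the groups overlapped (two-sided exact permutation test, p = 0.057). limma called it lower, at a log2 fold change of -0.48 (SE 0.14, adjusted p = 0.0114).

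let-7b-5p was the 1 detected 5p member that did not pass the test. Its log2 signal was 6.93, 6.86, 6.88 and 7.06 on the DMSO arrays, and 6.92, 6.90, 6.65 and 6.75 on the UNC1999 arrays. UNC1999 arrays 1 and 2 lay among the controls. The log2 fold change was -0.13 (95% interval -0.35 to 0.10, limma adjusted p = 0.27), an interval that does not hold the median change of the family. The signals of the 8 members by array show the gap between groups for let-7i-5p, let-7g-5p, let-7f-5p, let-7d-5p and let-7c-5p and its absence for let-7b-5p. On this scaled signal let-7f-1-3p, which was near background and is described separately, shows a gap too (5.79 or more on the DMSO arrays, 5.53 or less on the UNC1999 arrays).

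**Figure D1:**
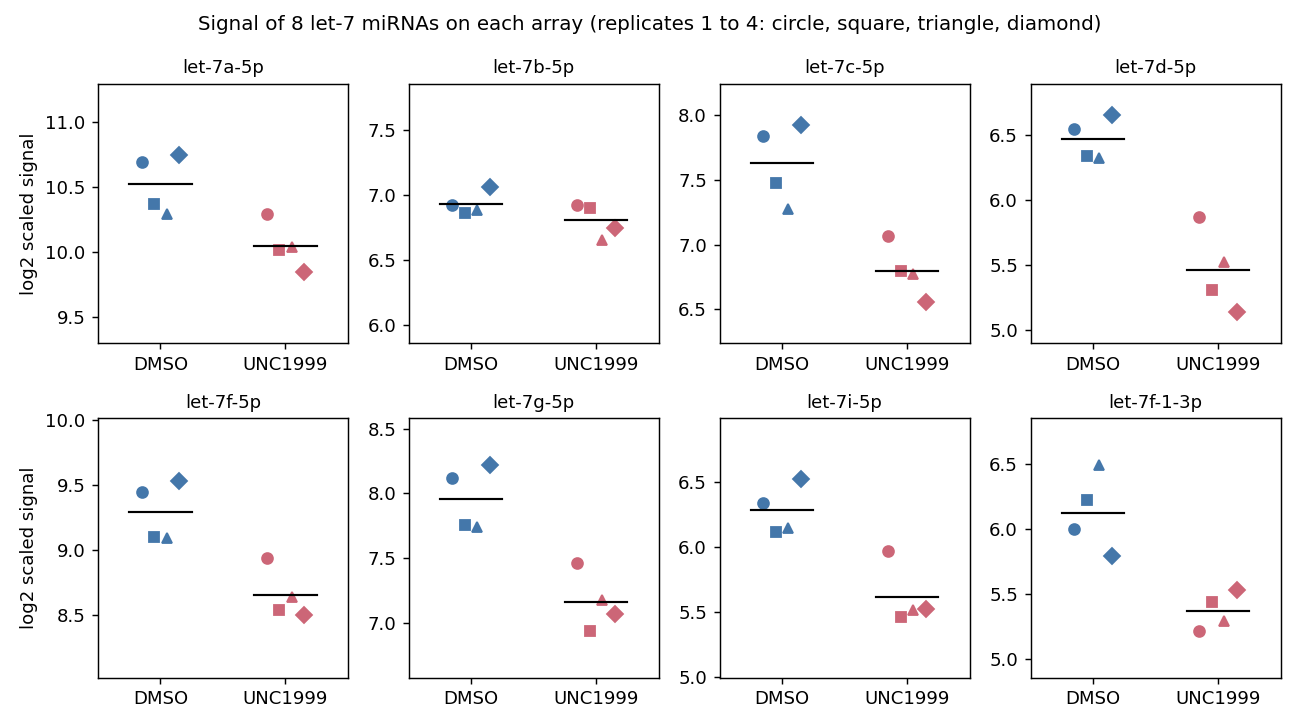
Log2 scaled signal (vertical axes, each spanning the same log2 range) of 8 let-7 miRNAs on the 4 DMSO and 4 UNC1999 arrays, 1 point per array, with lines at the group means. Relative to the other miRNAs of an array, let-7d-5p, whose lower call was lost without scaling and with spike-in scaling, lay between 6.33 and 6.66 on the DMSO arrays and between 5.14 and 5.87 on the UNC1999 arrays, whereas the groups of let-7b-5p overlapped.

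The arrays lay in 2 rows of the slide, row 1 with 3 DMSO arrays and 1 UNC1999 array and row 2 with 1 DMSO array and 3 UNC1999 arrays. With the row as a block, let-7d-5p had a log2 fold change of -1.07 (limma adjusted p = 0.00237, from 2.6e-05 to 0.50 over the alternatives), with differences of -1.38 within row 1 and -0.76 within row 2. let-7c-5p had -0.79 with the block, -1.19 within row 1 and -0.40 within row 2. let-7g-5p had -0.76, -0.96 and -0.55 in the same order, and let-7i-5p had -0.66, -0.81 and -0.50. let-7f-5p had -0.62 with the block, -0.86 within row 1 and -0.39 within row 2. let-7a-5p had -0.46 with the block (adjusted p = 0.037), -0.75 within row 1 and -0.17 within row 2, and let-7b-5p had -0.13, -0.20 and -0.06. The 6 calls held with the block, where 30.5% of all tested miRNAs were called lower. For each of the 7 members the difference was farther from 0 in row 1 than in row 2. Fewer of the members' probes were called lower with the block, 8 against 12.

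How far the family fell depended on what the arrays were scaled to. Without scaling between arrays, the median log2 fold change of all tested miRNAs was 0.67, and limma called 0 of the 7 members lower, with 0 lower at an unadjusted p under 0.05. Scaled to the labelling spike-ins, the median of all tested miRNAs was 0.77, limma called 0 of 7 members lower, with 0 lower at an unadjusted p under 0.05, and let-7b-5p was called higher, at 0.68 (adjusted p = 0.0092, the alternatives giving 0.0092 to 0.60). The spike-in signal was 1395 ± 162 on the DMSO arrays and 1288 ± 88.8 on the UNC1999 arrays (SD, n = 4, two-sided exact permutation p = 0.26). The unscaled 75th percentile was 419 ± 119 and 664 ± 88.3 (SD, n = 4, two-sided exact permutation p = 0.057). Under these 2 settings let-7d-5p had log2 fold changes of -0.31 and -0.20, and 3 and 2 of the 7 members were below 0. The choice therefore decided whether the family was lower or near its control level, and which of the scalings is closer to the amount of RNA per cell was not tested.

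Other scalings moved the counts less. Scaled to the 75th percentile of every human miRNA on the array, the median of all tested miRNAs was 0.23, 3 of 7 members were called lower (let-7c-5p, let-7d-5p and let-7g-5p), and let-7b-5p turned to 0.09. With the median over miRNAs detected on all 8 arrays, with quantile normalization and with the authors' processed values, the median of all tested miRNAs was 0.05, 0.11 and 0.18, and 6 of 7 members were called lower each time. Of all tested miRNAs, 32.7%, 29.4% and 25.7% were called lower in the same order. After normexp background correction that median was -0.29, and 5 of 7 members were called lower, let-7a-5p being lost. Calls over all tested miRNAs split into 164 higher and 158 lower in the setting reported, 192 and 88 with the percentile over all human miRNAs, 54 and 230 after normexp, 234 and 4 without scaling, and 295 and 7 with the spike-ins.

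The family was also set against the median of all tested miRNAs, a difference that a change of scaling factor alone leaves nearly fixed by construction. The median of the 7 members lay below it by a log2 difference of -0.68 in the setting reported, -0.68 with the percentile over all human miRNAs and with the median of detected miRNAs, and -0.81 with quantile normalization. The difference was -0.64 without scaling, -0.63 with the spike-ins, -0.91 with the authors' values and -0.21 after normexp. Of these settings, quantile normalization, the authors' values and normexp also change signals within an array. Under each of these, all 7 members were below the median of all tested miRNAs, except after normexp, where 5 of 7 were. These relative values show unequal change, and leave unsaid which miRNAs kept their amount.

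**Figure D2:**
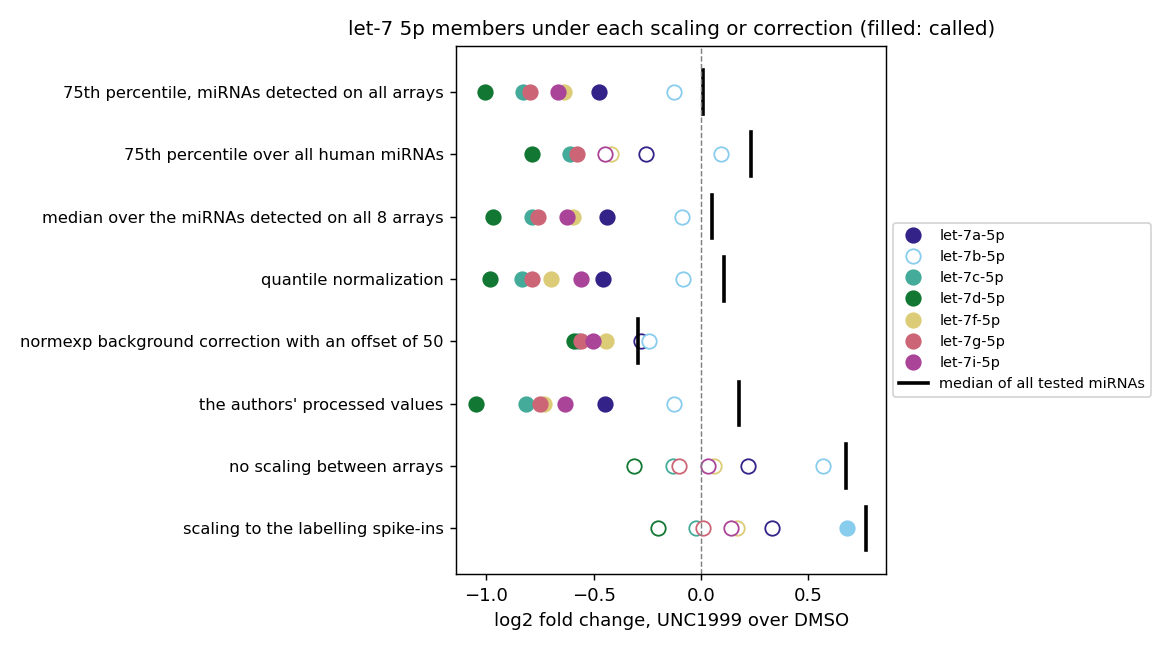
Log2 fold change of UNC1999 over DMSO (horizontal axis) of the 7 detected let-7 5p members under 8 scalings, corrections or sets of values (vertical axis), filled where called, with a bar at the median of all tested miRNAs. Members lie below 0 in the setting reported, and 4 of 7 lie above 0 without scaling and 5 of 7 with spike-in scaling, while the bar moves to 0.67 and 0.77.

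Differences between members on the same array do not depend on the array's scaling factor. Each array was therefore also centred on the mean log2 signal of the 7 detected 5p members, a mean that includes the member under test. That mean was 7.99, 7.72, 7.68 and 8.10 on the DMSO arrays and 7.50, 7.14, 7.19 and 7.06 on the UNC1999 arrays. On the scale against it, 2 of the 7 members passed limma's test over all 456 miRNAs, let-7b-5p as higher and let-7d-5p as lower, and in this comparison 62.1% of all tested miRNAs were higher and 5.04% lower.

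let-7b-5p lay against the family mean at -1.06, -0.86, -0.80 and -1.03 on the DMSO arrays, and at -0.58, -0.24, -0.54 and -0.31 on the UNC1999 arrays. All 4 UNC1999 values were above all 4 DMSO values. The mean moved from -0.94 ± 0.13 to -0.41 ± 0.17 (SD, n = 4), a log2 difference of 0.52 (SE 0.13, limma adjusted p = 0.00479). The call was lost after normexp, where the difference was 0.21 (adjusted p = 0.15), and with alike arrays averaged, where it was 0.52 (adjusted p = 0.11). Its adjusted p over the 27 alternatives ranged from 2.2e-04 to 0.15. Without the 2 dimmer DMSO arrays the difference was 0.63 (adjusted p = 0.00738).

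let-7d-5p lay against the family mean at -1.44, -1.38, -1.36 and -1.44 on the DMSO arrays, and at -1.63, -1.83, -1.66 and -1.91 on the UNC1999 arrays. The groups did not overlap, and the log2 difference was -0.36 (SE 0.12, limma adjusted p = 0.0197). This call was less stable, being lost under 11 of 27 alternatives, with adjusted p from 0.00581 to 0.98. It was lost without DMSO array 2 (-0.35, adjusted p = 0.051), without DMSO array 3 (-0.34, adjusted p = 0.053), without UNC1999 array 2 (-0.34, adjusted p = 0.055) and without UNC1999 array 4 (-0.31, adjusted p = 0.061). It was also lost with alike arrays averaged (-0.36, adjusted p = 0.24) and without the 2 dimmer DMSO arrays (-0.32, adjusted p = 0.12). With the slide row as a block the differences were -0.43 for let-7d-5p (adjusted p = 0.028) and 0.51 for let-7b-5p (adjusted p = 0.023).

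The remaining 5 members did not pass the test against the family mean. let-7a-5p was at 0.17 (adjusted p = 0.18) and let-7g-5p at -0.15 (adjusted p = 0.27), each without overlap between the groups. let-7c-5p was at -0.18 (adjusted p = 0.20), and it passed when log2 probe values were averaged, at -0.27 (adjusted p = 0.0499, range over the alternatives 0.0499 to 0.57). let-7f-5p and let-7i-5p were nearest to the family mean, at 0.01 and -0.02, with overlapping groups.

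**Figure D3:**
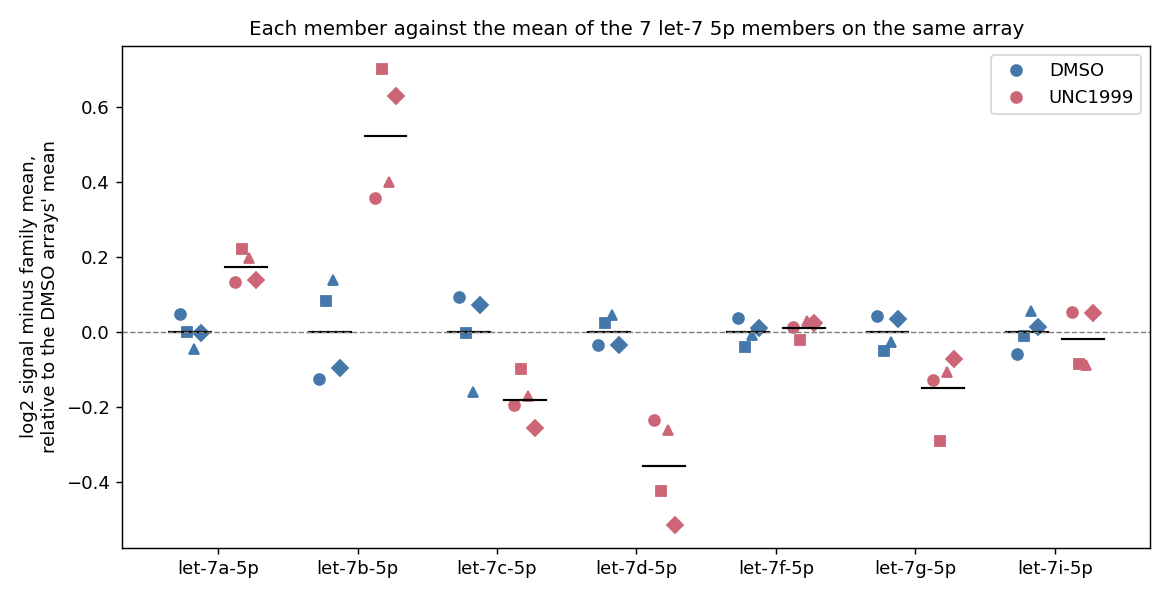
Log2 signal of each of the 7 detected let-7 5p members minus the mean of the 7 on the same array, set to 0 at the mean of the DMSO arrays (vertical axis), 1 point per array, with lines at the group means. let-7b-5p moved up by 0.52 and let-7d-5p by -0.36 against the family mean, which does not depend on the scaling factor of an array, while let-7f-5p and let-7i-5p stayed within 0.02 of it on average.

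The sequences set these differences in context, since the signals of members that differ by a single base still moved unequally. The log2 ratio of let-7a-5p to let-7c-5p, which differ by A19G, went from 2.90 ± 0.08 to 3.25 ± 0.03 (SD, n = 4), a change of 0.35. The log2 ratio of let-7b-5p to let-7c-5p, which differ by G17A with the base of let-7b-5p first, went from -0.69 ± 0.24 to 0.01 ± 0.16, a change of 0.70. That of let-7a-5p to let-7f-5p, which differ by G12A, changed by 0.16. A ratio also holds the brightness of each miRNA's probes, so its change is of interest here and not its level. Whether probes of one member also take up a near-identical member was not tested. Unscaled signals ranged from 715 to 1854 for let-7a-5p and from 88.6 to 262 for let-7c-5p. The signals may therefore not separate the members in full. In all 3 pairs that differ by 1 base the groups did not overlap, but how often this holds for pairs of other tested miRNAs was not measured. After normexp the changes were 0.29, 0.33 and 0.16 in the order given, and the groups overlapped in the 2 pairs with let-7a-5p.

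Distance in sequence did not order the pairs. Among the 21 pairs of detected 5p members, groups did not overlap in 4 of 6 pairs that differ by 2 bases, in 3 of 5 that differ by 3, in 3 of 6 that differ by 4 and in the 1 pair that differs by 6. The change in ratio reached 0.88 for let-7b-5p and let-7d-5p and was 0.03 for let-7f-5p and let-7i-5p, both of which are pairs 4 bases apart. Members that share a cluster also differed, since let-7a-5p and let-7d-5p have hairpins in the chromosome 9 cluster and their log2 ratio changed by 0.53, without overlap. Because let-7a-5p has 2 further hairpins, this does not compare products of the cluster alone. After normexp the ratio changed by 0.35 for let-7b-5p and let-7d-5p and by 0.31 for let-7a-5p and let-7d-5p, and 5 of the 21 pairs had groups that did not overlap, compared with 14 as reported. For let-7a-5p and let-7d-5p the groups overlapped after normexp and with the authors' processed values, where the change was 0.60. With log2 probe values averaged, the change was 0.51 for let-7b-5p and let-7d-5p and 0.13 for let-7a-5p and let-7d-5p. Pairs share members and are not independent of each other, and the like share over pairs of other tested miRNAs was not measured. With 34.6% of all tested miRNAs called lower and 36% called higher, the counts of pairs are not read as particular to let-7.

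Probe by probe, 12 of the 14 probes of the detected 5p members were called lower, against 22.8% of the 982 probes of tested miRNAs. Each 5p member had 2 probes with 10 spots each. Both probes were called for let-7c-5p (-0.79 and -0.97), let-7f-5p (-0.62 and -0.78), let-7g-5p (-0.87 and -0.77) and let-7i-5p (-0.66 and -0.67). The probes of let-7a-5p had log2 fold changes of -0.51 (limma adjusted p = 0.017) and -0.46 (adjusted p = 0.042), the latter with overlapping groups. Neither probe of let-7b-5p was called, at -0.17 (adjusted p = 0.076) and -0.03 (adjusted p = 0.90). The counts of called probes, like those of members, depended on scaling: of the members' probes limma called 0 lower without scaling and 0 lower with the spike-ins, with 0 lower at an unadjusted p under 0.05 in each, and 0 lower with the percentile over all human miRNAs, with 5 at an unadjusted p under 0.05.

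The 2 probes of let-7d-5p were not alike. One had a log2 fold change of -0.93 (limma adjusted p = 0.00497) and was well above background on all 8 arrays. The other stood at the probe floor of 16.9 on every UNC1999 array, was well above background on 2 of 8 arrays, and had a fitted value of -0.29 (adjusted p = 0.047), which the floor bounds. When probes were averaged on the log2 scale in place of being summed, let-7d-5p was at -0.00 against the family mean (adjusted p = 0.98), and its log2 fold change was -0.61, against -0.88 for let-7c-5p.

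The passenger arm let-7f-1-3p lies on the hairpin of one of the let-7f genes and has another seed. Its unscaled signal, summed over 4 probes with 5 spots each, was 58.7, 50.3, 51.4 and 59.6 on DMSO arrays 1 to 4, and 49.1, 59.2, 55.0 and 47.8 on UNC1999 arrays 1 to 4. The groups overlapped throughout, at 55.0 ± 4.81 and 52.8 ± 5.32 (SD, n = 4, two-sided exact permutation p = 0.54). Of its 80 spots per group, 6 were well above background on the DMSO arrays and 5 on the UNC1999 arrays, and 1 of its 4 probes was well above background in most spots on 1 array, DMSO array 1.

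After scaling, the same signal met the thresholds for a lower call, at -0.76 (limma adjusted p = 0.00183). Of its 4 probes limma called 0, with 1 at an unadjusted p under 0.05, but all 4 stood at the probe floor on every UNC1999 array. The floor bounds these probe values, so the count of 0 decides nothing. With the floor at 0.1 of that used, probes called lower over all members, let-7f-1-3p included, numbered 16, against 12 as reported. Without scaling the log2 difference of the summed signal was -0.06. Since the signal before scaling was not well above background in either group, the fitted value is not read as a change, and let-7f-1-3p is not among the 6 members of 7 counted above as lower. let-7b-3p, which differs from it by U9C and U13C, was detected on 3 DMSO and 3 UNC1999 arrays and was not tested.

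The ratio of let-7f-1-3p to its guide is given as measured, and with the passenger arm near background it cannot show whether the arms changed alike. The log2 ratio of let-7f-1-3p to let-7f-5p was -3.45, -2.87, -2.60 and -3.74 on the DMSO arrays, and -3.72, -3.10, -3.35 and -2.97 on the UNC1999 arrays. The ratios overlapped widely, with the highest values on the 2 dimmer DMSO arrays. The difference was -0.12 (two-sided exact permutation test, n = 4 and 4, p = 0.69). It turned to 0.03 with quantile normalization, to 0.07 without DMSO array 3 and to 0.03 without UNC1999 array 1. The unscaled signals of both arms are drawn beside the brightness of each array.

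**Figure D4:**
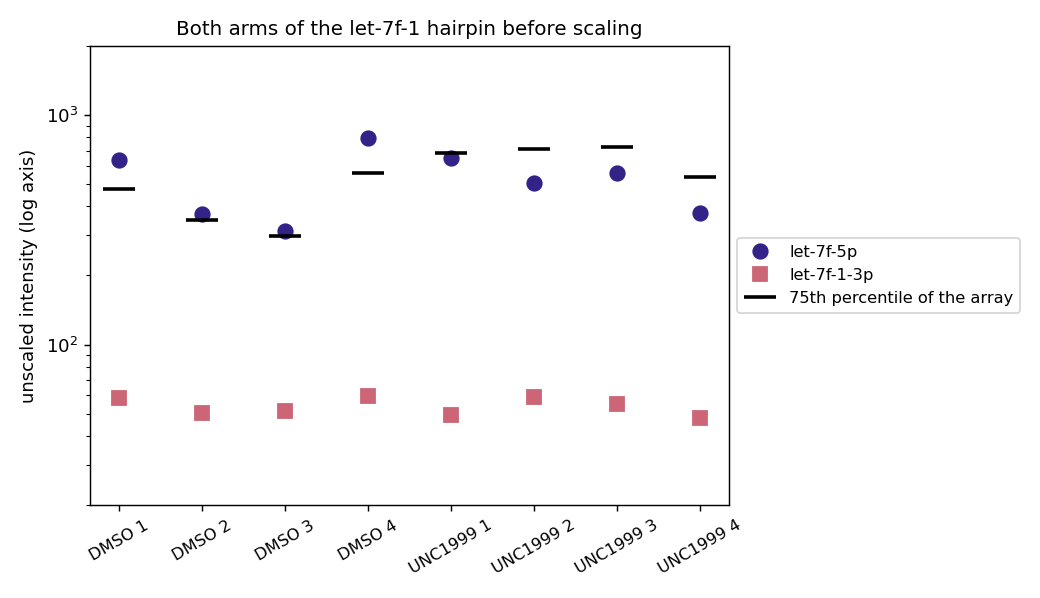
Unscaled intensity (log axis) of let-7f-5p and let-7f-1-3p on each of the 8 arrays, with a bar at each array's 75th percentile over miRNAs detected on all arrays. let-7f-1-3p stayed between 47.8 and 59.6 while the percentile ranged from 296 to 729.

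Opposite arms and further miRNAs with the let-7 seed gave little signal. Of 10 opposite arms of the family's hairpins, 9 had probes, 0 were tested and 8 were detected on 0 of 8 arrays, let-7b-3p being the exception. miR-4458 and miR-4500, which share the seed, and miR-202-3p, a relative whose seed ends in another base, were each detected on 0 of 8 arrays.

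Neighbours of let-7 genes were detected in part. Hairpins of let-7a, let-7c and let-7e lie near genes of the miR-99, miR-100 and miR-125 families, and of 11 mature miRNAs of these neighbours 4 were detected on all arrays and 7 on none. Of the 4, relative to the other miRNAs of an array, 3 were called lower and 1 higher, against 34.6% and 36% of all tested miRNAs, and the count of 4 calls dropped to 1 without scaling and to 1 with the spike-ins. In these settings 234 and 295 of all 456 tested miRNAs were called higher, and 4 and 7 lower. The 4 are shown with the seed in capitals because miR-99a-5p and miR-100-5p share theirs.
hsa-miR-99a-5p: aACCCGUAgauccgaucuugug
hsa-miR-100-5p: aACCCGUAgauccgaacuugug
hsa-miR-125b-5p: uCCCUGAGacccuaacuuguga
hsa-miR-125a-3p: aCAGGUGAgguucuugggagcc
miR-99a-5p, which lies beside let-7c on chromosome 21 at chr21:16539101-16539122, had log2 signals of 9.02, 8.66, 8.48 and 9.09 on the DMSO arrays and 7.99, 7.73, 7.79 and 7.37 on the UNC1999 arrays. The groups did not overlap, and the log2 fold change was -1.09 (SE 0.17, limma adjusted p = 5.3e-04). miR-100-5p, at chr11:122152275-122152296 beside a let-7a hairpin, had 5.41, 5.24, 5.29 and 5.48 on the DMSO arrays and 4.49, 4.40, 4.21 and 3.76 on the UNC1999 arrays. UNC1999 array 4 was the lowest, the groups were apart, and the log2 fold change was -1.14 (SE 0.16, adjusted p = 2.8e-04). In the fit per probe, one of its 2 probes was at the probe floor on all arrays. miR-125b-5p, made from hairpins on chromosomes 11 and 21, had 8.28, 7.94, 7.88 and 8.30 on the DMSO arrays and 7.28, 7.11, 7.14 and 6.87 on the UNC1999 arrays. Its groups did not overlap, and the log2 fold change was -1.00 (SE 0.13, adjusted p = 2.7e-04). One of the 2 probes of miR-125b-5p was well above background on 2 of 8 arrays, and in the fit per probe at the probe floor on all UNC1999 arrays.

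miR-125a-3p moved the other way. Its gene lies with that of let-7e within SPACA6, at chr19:51693306-51693327, and let-7e-5p itself was not detected. Its log2 signal was 6.65, 6.56, 6.65 and 6.60 on the DMSO arrays, and 6.85, 6.93, 6.82 and 7.07 on the UNC1999 arrays. All UNC1999 values were above all DMSO values, with a log2 fold change of 0.30 (SE 0.09, limma adjusted p = 0.0151). The call was lost without DMSO array 3 (0.26) and without UNC1999 array 4 (0.25), both under the fold threshold, with the sum made by the scanner software (0.22, adjusted p = 0.069), with the replicate number as a block (adjusted p = 0.053) and with alike arrays averaged (adjusted p = 0.22). After normexp the value was -0.17 (adjusted p = 0.19). The value was larger under other scalings, at 0.52 with the percentile over all human miRNAs, 1.00 without scaling and 1.11 with the spike-ins. The adjusted p over its alternatives ranged from 1.1e-04 to 0.22.

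On the scale centred on the let-7 family mean, the change of the neighbours differed from that of let-7, in a comparison where 62.1% of all tested miRNAs were higher and 5.04% lower. A higher call, as for miR-125a-3p, was thus the common outcome there. miR-100-5p changed against the family mean by -0.49 (SE 0.14, limma adjusted p = 0.0101), miR-99a-5p by -0.44 (SE 0.12, adjusted p = 0.00815) and miR-125b-5p by -0.35 (SE 0.11, adjusted p = 0.0183). miR-125a-3p changed by 0.95 (SE 0.17, adjusted p = 4.0e-04). These differences depended on the setting. Of 27 alternatives, miR-99a-5p was lost under 1, miR-125a-3p under 1, miR-100-5p under 5 and miR-125b-5p under 8, with adjusted p up to 0.14, 0.10, 0.89 and 0.24 in that order. After normexp miR-100-5p was at -0.03, miR-125b-5p at -0.21 and miR-125a-3p at 0.28, none of which passed. miR-100-5p turned to 0.10 when log2 probe values were averaged, where its probe at the floor counts in full. In that setting miR-125b-5p was at -0.19 (adjusted p = 0.13). With alike arrays averaged, miR-125a-3p alone passed, and without DMSO array 1 miR-125b-5p was lost (-0.33, adjusted p = 0.057). The call of miR-125b-5p was also lost with the slide row as a block (-0.36, adjusted p = 0.054) and with the replicate number as a block (-0.35, adjusted p = 0.092). miR-99a-5p was not tested against let-7c-5p alone.

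**Figure D5:**
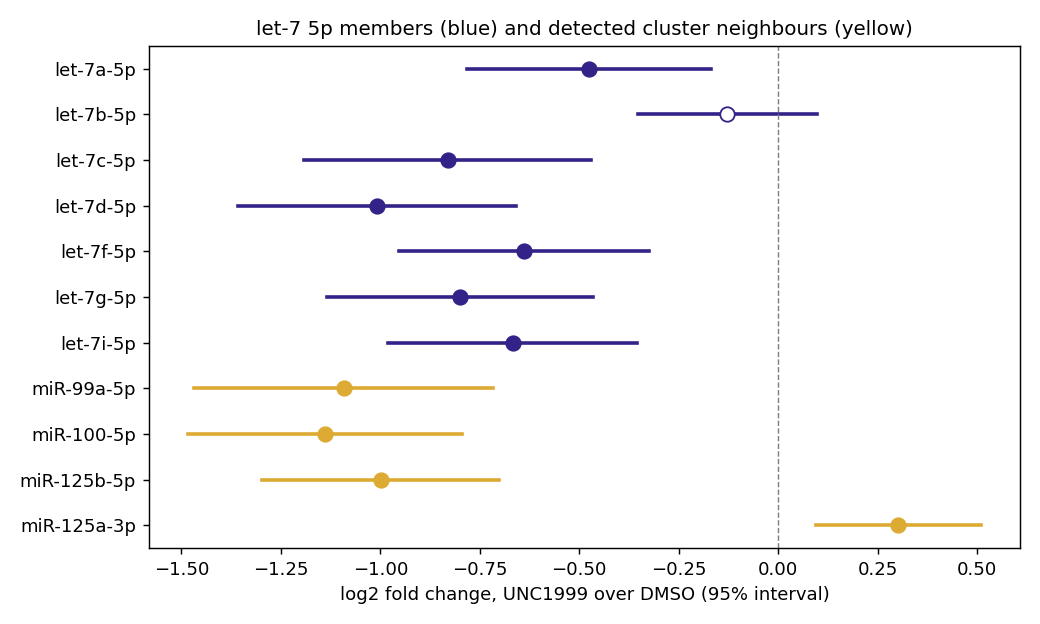
Log2 fold change of UNC1999 over DMSO with its 95% interval (horizontal axis) for the 7 detected let-7 5p members and 4 detected cluster neighbours (vertical axis), filled where called. In the scaling shown the 3 neighbours called lower lie between -1.14 and -1.00 and miR-125a-3p at 0.30, and the let-7 members lie between -1.01 and -0.13, whereas 4 of the 7 let-7 members lie above 0 without scaling and 5 with spike-in scaling.

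Several miRNAs outside the family had almost the same profile over the 8 arrays. Likeness was measured as the root mean square difference of log2 signals, each centred on its own mean over the arrays, from the mean profile of the 7 detected 5p members. The 5 nearest were miR-16-5p (0.068), miR-130b-3p (0.072), miR-514b-5p (0.075), miR-15b-5p (0.076) and miR-374a-5p (0.082), with log2 fold changes of -0.56, -0.64, -0.60, -0.76 and -0.73. In the same order over all 456 tested miRNAs, let-7f-5p ranked 1, let-7i-5p 2, let-7a-5p 11, let-7g-5p 14 and let-7c-5p 19. let-7d-5p ranked 53 and let-7b-5p 123, so that some members were less like their own family's mean than unrelated miRNAs were. Among the 5 nearest, miR-514b-5p was close to background. It was detected on 3 of 4 DMSO arrays, with 16 of 80 spots well above background on the DMSO arrays and 11 of 80 on the UNC1999 arrays. Its likeness and fold change are therefore given as measured and are not exact. Likeness of this kind is a description over 8 arrays.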

How the data were processed

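Mature miRNAs were measured on 8 arrays, and the authors deposited the scanner output with an intensity per spot, background-subtracted within the array by Agilent Feature Extraction 10.7.3.1 (named in the submitters' processing notes) and not scaled between arrays. A second table that the authors deposited holds log2 values for 2042 features and correlated with the scanner values of the same array at r of 0.912 to 0.973 over the 456 tested miRNAs. The column medians over its features were -3.31, -3.13, -3.13 and -3.31 on DMSO arrays 1 to 4, and -3.32, -3.32, -3.32 and -3.30 on UNC1999 arrays 1 to 4, while the median over the 456 tested miRNAs was 3.74 on 7 arrays and 3.75 on UNC1999 array 4. The values were thus aligned between arrays near this level, and the step that aligned them is not known here.

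Spots of a probe were averaged without outlier spots and summed over its miRNA's probes. After scaling to the 75th percentile over miRNAs detected on all 8 arrays, the floor and log2, limma 3.58.1 (functions lmFit and eBayes, R 4.3.3) tested the miRNAs. Single values were tested with exact permutation tests, two-sided. A floor understates the changes of dim miRNAs. The miRNAs named are the members, detected miRNAs of the lists (opposite arms, other miRNAs with the seed, cluster neighbours), and the 5 nearest profiles, beside the marker lists. The members and lists were chosen with earlier results of these data known. Steps were tested on simulated data.

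Alternatives were other scalings, normexp (offset 50), the sum made by the scanner software, a floor at 0.1 of that used, the brightest probe, averages of log2 probes, other detection filters, the authors' processed values, trend and robust eBayes, the replicate number, slide row or alike arrays as a block, leaving out each array, a paired t-test, and a threshold without a fold change. Normexp was run on the median spot signal. Averaging alike arrays and leaving out the 2 dimmer DMSO arrays were added after seeing the data, and the blocks of alike arrays were themselves drawn from these data. The mRNA arrays of the study were not analysed here.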

Additional observations from a re-analysis of the deposited data

Results flagged for a closer look

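The log2 signal of hsa-let-7i-5p on UNC1999 array 1 was 5.97, against 5.46 to 5.52 on the other 3 UNC1999 arrays, which set it apart from its group. Of 52 groups of 4 values checked in this way 1 stood out, and chance flags about 1 in 20 groups, or 2.6 of 52.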

How the results depend on the processing

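The sign of the family's median change held under most settings and turned under others. Over 27 alternatives the median log2 fold change of the 7 detected 5p members ranged from -0.81 to 0.14: it was -0.45 with the percentile over all human miRNAs, 0.0308 without scaling and 0.14 with the labelling spike-ins, against -0.67 as reported, and -0.78 to -0.59 with each array left out. Members that met the thresholds for lower, with let-7f-1-3p, whose signal was near background, numbered 7 in the fit reported and with each array left out, 4 with the percentile over all human miRNAs, 0 without scaling and 0 with the spike-ins (limma, with 0 of the 5p members lower at an unadjusted p under 0.05), 3 without a detection filter and 4 by a paired t-test by replicate number after Benjamini-Hochberg adjustment. All called miRNAs numbered 322 as reported, 195 without a filter, which tests 2549 miRNAs, 156 with alike arrays averaged, 152 by the paired t-test, and 296 to 326 with each array left out. The cause was not tested.

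Members that moved against the family mean numbered 2 as reported, 1 with the scanner software's sum, 0 after normexp, 4 without a filter (let-7e-5p and miR-98-5p then count, at the floor), 3 with the mean of log2 probes (let-7b-5p, let-7c-5p and let-7f-1-3p), 1 with the authors' values, 1 with the replicate block, 0 with alike arrays averaged, 1 without the dimmer DMSO arrays, and 1 to 2 with each array left out. Of the lists' miRNAs 4 were called as reported, 1 without scaling, 1 with the spike-ins, and 3 to 5 with each array left out. Members' probes called lower numbered 12 as reported, 0 with the percentile over all human miRNAs, 0 without scaling, 0 with the spike-ins, and 9 to 12 with each array left out, counts of lower probes at an unadjusted p under 0.05 being 5, 0 and 0 for the 3 scalings. They numbered 8 with the slide row as a block, 10 with the replicate block, 11 with quantile normalization, 14 after normexp and 16 with the floor at 0.1 of that used. The let-7f-1-3p to let-7f-5p ratio difference was 0.0296 with quantile normalization and -0.31 to 0.0675 with each array left out.

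Among the members, the neighbours and the 5 nearest miRNAs, log2 fold changes turned sign as follows. Without scaling: let-7a-5p 0.22, let-7b-5p 0.57, let-7f-5p 0.0592, let-7i-5p 0.0308, miR-16-5p 0.13, miR-130b-3p 0.0548 and miR-514b-5p 0.10. With the spike-ins: let-7a-5p 0.33, let-7b-5p 0.68, let-7f-5p 0.17, let-7g-5p 0.0086, let-7i-5p 0.14, let-7f-1-3p 0.0486, miR-16-5p 0.24, miR-130b-3p 0.16, miR-514b-5p 0.21, miR-15b-5p 0.0473 and miR-374a-5p 0.0731. With the percentile over all human miRNAs let-7b-5p was 0.0938, and after normexp miR-125a-3p was -0.17. Against the family mean, small values turned: let-7f-5p -0.0703 and let-7i-5p 0.0713 with quantile normalization, let-7f-5p -0.0898 and let-7f-1-3p 0.46 with the mean of log2 probes, let-7f-5p -0.0802 and let-7i-5p 0.0166 with the authors' values, and let-7f-5p -0.0135, let-7i-5p 0.0053 and let-7f-1-3p 0.29 without the dimmer DMSO arrays. With each array left out, let-7f-5p ranged from -0.0028 to 0.0233, let-7i-5p from -0.0412 to 0.0060 and let-7f-1-3p from -0.30 to 0.0758. The cause was not tested.

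Samples share a replicate number, and deviations from the group means correlated at 0.18, 0.27, -0.42 and -0.39 for numbers 1 to 4. These values show no steady pairing by number. They cannot exclude one, since the alike pairs of arrays cut across the numbers. With the replicate block, 308 miRNAs and 7 members were called. The calls of let-7d-5p against the family mean (-0.36, adjusted p = 0.084), of miR-125b-5p against the family mean (-0.35, adjusted p = 0.092) and of miR-125a-3p (0.30, adjusted p = 0.053) were lost. Averaging alike arrays and leaving out the 2 dimmer DMSO arrays were settings added after seeing the data, and blocking on alike arrays used blocks drawn from these data. All values come from 1 cell line and 4 arrays per group.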
